A study of Mus musculus with 5 samples.

Results

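The 10 genes of TGF-beta and activin signalling followed here were read across the cell types of the mouse liver, to ask which nuclei held the ligands and which held the receptors, and what differed with diet. They were taken by symbol from a list made with earlier results of these data known, and are the ligands Tgfb1, Tgfb2 and Tgfb3, the latency protein Ltbp1, the activin subunits Inhba and Inhbe, the receptors Tgfbr1 and Tgfbr2, and the intracellular mediators Smad3 and Smad7. All 10, of the 32285 genes counted, had UMIs (unique molecular identifiers, 1 per captured RNA molecule) in each of the 5 libraries. The livers were from male, wild-type C57BL6/J animals. Both groups were put on their diet at 10 to 12 weeks of age and stayed on it for 5 months. One group, with 3 libraries, ate regular chow. The other, with 2 libraries, ate a MASH diet that gave 40% of its kcal as fat and 20% as fructose and held 2% cholesterol, and which brings on metabolic dysfunction-associated steatohepatitis. Neither group carried a transgene or received a drug, per the labels. Whether a library came from 1 mouse or a pool is not given, so the library was the replicate, and p-values measure only the spread between libraries.

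TGF-beta ligands are secreted in an inactive form, tethered to the matrix by latent TGF-beta binding proteins, and are released by integrins and proteases. The active ligand binds TGFBR2, which recruits and activates TGFBR1. TGFBR1 in turn phosphorylates SMAD2 and SMAD3, which enter the nucleus with SMAD4, while SMAD7 is induced by the signal and shuts the receptor down. Activins are made of inhibin beta subunits and reach the same SMADs through their own receptors. In the liver TGF-beta is best known for driving hepatic stellate cells to make collagen, and activin E, the product of Inhbe, is known as a factor made by hepatocytes.

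The libraries held 35612373 to 49137377 UMIs in 8633 to 12935 barcodes, and 51470 nuclei were kept. Any pair of libraries shared 23 to 48 barcodes. Nuclei were named by clustering on other genes, and 44858 fell in a named lineage, while 12.8% stayed unnamed (25.0% in MASH replicate 1). In chow replicate 3, 97.4% of the hepatocyte-like nuclei lay in 2 clusters with acute-phase genes such as Saa1 and Saa2 among their top genes, and Saa1 was at 6778 CPM (UMIs of a gene relative to all UMIs, scaled to 1e6) there, against 102 to 708 CPM in the hepatocyte-like nuclei of the other libraries. In chow replicate 1, 185 of all 188 nuclei of a neutrophil precursor cluster (S100a9, Camp, Ngp) were found. In MASH replicate 1 the median mitochondrial share was 7.42%, against 0.892% to 3.55% in the others. Results are therefore given with and without such a library where it matters.

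The lineages followed their defining genes. Apart from Hnf4a, these were among the markers that named the clusters, so their high values there do not test the names. Hnf4a was at 160.5 to 398 CPM in hepatocyte-like nuclei and at 24.1 to 158 CPM in the other lineages. Reln was at 899 to 2017 CPM in stellate-like nuclei, Ptprb at 1231 to 2790 CPM in endothelial-like nuclei, Pkhd1 at 674 to 1090 CPM in cholangiocyte-like nuclei and Ptprc at 837 to 1512 CPM in immune-like nuclei, and the highest value of these 4 in another lineage was 87.8 CPM (Ptprb in immune-like nuclei). The other stellate marker, Col3a1, reached 565 CPM in immune-like nuclei. The hepatocyte transcript Alb was at 1387 to 5898 CPM in hepatocyte-like nuclei and at up to 14186 CPM in the other lineages, so hepatocyte RNA was read in all of them. Hepatocyte-like nuclei were named mainly by lacking the markers of other lineages. Chow replicates 1, 2 and 3 gave 5801, 9372 and 8358 hepatocyte-like nuclei, and MASH replicates 1 and 2 gave 4909 and 4733. Immune-like nuclei numbered 194 to 433 in chow and 1358 to 2074 in MASH. Stellate-like nuclei numbered 197 to 473 and 834 to 1280, and endothelial-like nuclei 221 to 646 and 516 to 704. Cholangiocyte-like nuclei numbered only 13 to 44 in chow and 297 and 1297 in MASH, so their levels are given for chow replicate 3 and the MASH libraries, and as UMIs for the other chow libraries where they had any.

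The levels below are UMIs of a gene as unscaled CPM of all UMIs of a lineage in 1 library and compare lineages within 1 gene only. Libraries are given in the order chow replicates 1, 2 and 3, then MASH replicates 1 and 2.

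Tgfb1, the most widely studied TGF-beta ligand, lies on chromosome 7 (GRCm38, 25687002 to 25705077, plus strand). Its level was highest in immune-like nuclei, at 149.5, 108 and 128 CPM in chow and 160.2 and 211 CPM in MASH. Endothelial-like nuclei were next, at 104, 74.0 and 201.5 CPM in chow and 113 and 111 CPM in MASH, and the ranges of these lineages overlapped. Stellate-like nuclei followed at 65.4, 28.0 and 59.5 CPM in chow and 36.9 and 51.0 CPM in MASH, below every endothelial-like value. Hepatocyte-like nuclei held 0.832 to 4.14 CPM and cholangiocyte-like nuclei 0 to 13.7 CPM. Among immune-like nuclei, Tgfb1 was at 130.5 to 283 CPM in a dendritic-like cluster led by Ccr2 and Lyz2, which can hold monocytes, at 121 to 221 CPM in macrophage-like nuclei and at 51.3 to 119 CPM in T- or NK-like nuclei. Endothelial-like nuclei of chow replicates 2 and 3 lay mostly in a cluster led by Clec4g and Dnase1l3, and those of the other libraries in one led by Ushbp1 and Stab2.

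Tgfb2, a ligand of the same receptors, lies on chromosome 1 (186622792 to 186705989, minus strand). In MASH its level was highest in cholangiocyte-like nuclei, at 59.1 and 91.0 CPM from 25 and 160 UMIs, and the 17, 13 and 44 such nuclei of the chow libraries held 3, 0 and 1 UMIs, of which the 3 came to 153 CPM, above both MASH values. Stellate-like nuclei held 28.6, 3.997 and 22.3 CPM in chow and 24.9 and 37.0 CPM in MASH. Endothelial-like nuclei held 0 to 24.9 CPM, and the clusters within them differed. A cluster led by Vwf and Edn1, genes of large-vessel endothelium, held 182, 82.4 and 0 CPM in chow and 7.62 and 90.6 CPM in MASH, against at most 7.04 CPM in the sinusoidal cluster led by Ushbp1 and Stab2. The Vwf-led cluster had only 53, 28, 58, 119 and 150 nuclei, with 36403 to 154496 UMIs of all genes. Its values therefore rest on few Tgfb2 UMIs. Hepatocyte-like nuclei held 0.227, 0.508 and 0.329 CPM in chow and 4.53 and 4.75 CPM in MASH, from 6, 17, 13, 92 and 103 UMIs.

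The 250 bases before the RefSeq start of Tgfb2 are shown because the gene was called in hepatocyte-like nuclei and because they hold the short SMAD binding motif CAGACA, in capitals. They run 5′ to 3′ on the minus strand at chr1:186705990-186706239 of GRCm38, and the match lies 204 to 199 bases before the start.
Tgfb2: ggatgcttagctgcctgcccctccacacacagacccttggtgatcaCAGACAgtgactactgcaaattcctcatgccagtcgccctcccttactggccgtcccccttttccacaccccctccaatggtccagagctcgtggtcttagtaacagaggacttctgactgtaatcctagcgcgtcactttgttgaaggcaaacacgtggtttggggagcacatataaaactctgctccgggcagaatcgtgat
This motif, searched on both strands as CAGACA and TGTCTG, was in 17.1% of 32851 RefSeq windows of 250 bases, and of the 8 members found in that table it was also before Ltbp1 and Tgfbr1. The SMAD palindrome GTCTAGAC was in 0.167% of the windows and before none of these 8.

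Tgfb3 was scarce, with 173 UMIs in all kept nuclei. Stellate-like nuclei held 4.09 to 12.9 CPM and hepatocyte-like nuclei 0.0253 to 0.507 CPM. A stellate-like cluster led by Adamtsl2 and Col6a3, with the collagen genes Col1a2 and Col1a1 among its top genes, held 32.1 and 19.0 CPM in MASH from 6 and 21 UMIs. In cholangiocyte-like nuclei 33 of the 35 UMIs came from MASH replicate 2.

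Ltbp1, which anchors latent TGF-beta to the matrix, lies on chromosome 17 (75005568 to 75392512, plus strand). Stellate-like nuclei held 55.2, 36.0 and 44.7 CPM in chow and 49.8 and 67.5 CPM in MASH. No other lineage passed 7.79 CPM in any library. Within stellate-like nuclei the Adamtsl2-led cluster held 134.7 CPM in chow replicate 1 and 102 and 79.6 CPM in MASH. In chow replicate 1 this cluster had only 39 nuclei with 44530 UMIs of all genes, so its value there rests on few Ltbp1 UMIs.

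Inhba, whose product forms activin A, lies on chromosome 13 (16011851 to 16031621, plus strand). Hepatocyte-like nuclei held 86.6, 90.9 and 20.1 CPM in chow and 59.6 and 47.0 CPM in MASH, so chow replicate 3, the library with the acute-phase clusters, was lowest. Stellate-like nuclei held 57.2, 63.9 and 46.5 CPM in chow and 39.5 and 49.9 CPM in MASH. Cholangiocyte-like nuclei held 18.6 CPM from 1 UMI in chow replicate 3 and 73.3 and 122 CPM in MASH, while those of chow replicates 1 and 2 held 2 and 1 UMIs (102 and 53.5 CPM). Immune-like and endothelial-like nuclei held 6.64 to 30.8 CPM, below every stellate-like value. Hepatocyte-like clusters of 1 library also differed. In chow replicate 1 Inhba ran from 31.7 CPM in the cluster led by Cyp4a14 and Sult2a8 to 170.3 CPM in that led by Clec2h and Gm31583, with 169.9 CPM in one led by haemoglobin genes, 128 CPM in one led by Hal and Cryl1 and 39.0 CPM in one led by Cyp2c40. In chow replicate 2 the same clusters held 42.4, 81.0, 123.5, 162 and 27.2 CPM in that order. Inhba, which was kept out of the clustering, is itself among the top genes of the Hal-led cluster.

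Inhbe lies on chromosome 10 (127348857 to 127354411, minus strand), 1.91 kb from its paralog Inhbc. Its UMIs lay almost wholly in hepatocyte-like nuclei. Their level was 91.3, 53.5 and 31.1 CPM in chow and 255 and 249 CPM in MASH, so each MASH value was above every chow value. Across 6 clusters Inhbe ran from 72.2 to 104 CPM in chow replicate 1 and from 41.7 to 84.0 CPM in chow replicate 2, where 2 small clusters of 39 and 22 nuclei held 32.0 and 12.7 CPM, and in chow replicate 3 the 2 main clusters held 53.2 and 24.8 CPM. In MASH the 2 clusters that held nearly all hepatocyte-like nuclei, led by Ly6d and Nrg1 and by Rgs16 and Themis, were alike, at 253 and 231 CPM and at 269 and 254 CPM. An antisense gene, Gm47200, overlaps Inhbe on the other strand and had 105 UMIs.

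The 30 bases around a C/EBP-ATF response element before Inhbe are shown because this gene had the most UMIs of the 10 and was called. They run 5′ to 3′ on the minus strand at chr10:127352011-127352040 of GRCm38, 192 to 163 bases before the RefSeq start, in the first exon (5′UTR) of a longer GENCODE transcript. Capitals mark the match, which reads TGATGNAAN on the other strand.
Inhbe: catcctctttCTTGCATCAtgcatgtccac
This element was in 3.44% of the 32851 windows and before none of the other 7 members in the table. The cyclic AMP response element TGACGTCA, searched likewise, was in 1.55% of windows and before Ltbp1 alone among the 8. Tgfb3 and Smad7 were not in the table, and a match is only a description of these letters.

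Tgfbr1, the signalling receptor kinase, lies on chromosome 4 (47353222 to 47414931, plus strand) and was read in every lineage. Macrophage-like nuclei held 269, 96.6 and 200.5 CPM in chow and 229 and 366 CPM in MASH. All immune-like nuclei together held 102, 88.7 and 128 CPM in chow and 164 and 305 CPM in MASH, and MASH lay above chow. The mix of immune-like nuclei differed, since 196 of 433 in chow replicate 1 were neutrophil-like, with Tgfbr1 at 14.1 CPM, and 925 of 1358 in MASH replicate 2 were macrophage-like. Stellate-like nuclei held 48.0 to 106 CPM and endothelial-like nuclei 15.6 to 52.6 CPM. Hepatocyte-like nuclei went the other way, with 43.6, 57.5 and 69.4 CPM in chow and 40.7 and 44.9 CPM in MASH on this scale, and MASH replicate 2 fell within the chow range.

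Tgfbr2, the receptor that binds the ligand, lies on chromosome 9 (116084293 to 116175360, minus strand). Endothelial-like nuclei held 38.0 to 79.7 CPM and immune-like nuclei 49.8 to 59.3 CPM, and these ranges overlapped. Stellate-like nuclei held 23.98 to 48.4 CPM, below all immune-like values, cholangiocyte-like nuclei 11.4 to 23.7 CPM and hepatocyte-like nuclei 4.16 to 17.2 CPM. The Vwf-led endothelial cluster was higher than the Ushbp1-led one in each of the 4 libraries with at least 20 nuclei of both, at 80.9, 219.8, 83.8 and 155 CPM against 34.8, 50.3, 42.4 and 44.0 CPM in chow replicates 1 and 2 and MASH replicates 1 and 2. Chow replicate 3 held 170.1 CPM in the Vwf-led cluster and 65.9 CPM in the Clec4g-led one. The Vwf-led cluster had 28 to 150 nuclei per library, and the Ushbp1-led one 31 in chow replicate 2. Some of these values therefore rest on few Tgfbr2 UMIs.

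Smad3, which carries the signal to the nucleus, lies on chromosome 9 (63646767 to 63757994, minus strand) and had no lineage order beyond the spread, since all neighbouring ranges overlapped. Values ran from 12.5 to 25.7 CPM in hepatocyte-like nuclei and from 7.99 to 45.8 CPM in stellate-like nuclei. Smad7, the inhibitory SMAD on chromosome 18, was at 121 to 368 CPM in endothelial-like nuclei, 136 to 307 CPM in stellate-like nuclei and 41.6 to 95.8 CPM in hepatocyte-like nuclei. Its neighbouring ranges overlapped too, yet every endothelial-like and stellate-like value was above every hepatocyte-like value.

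**Figure D1:**
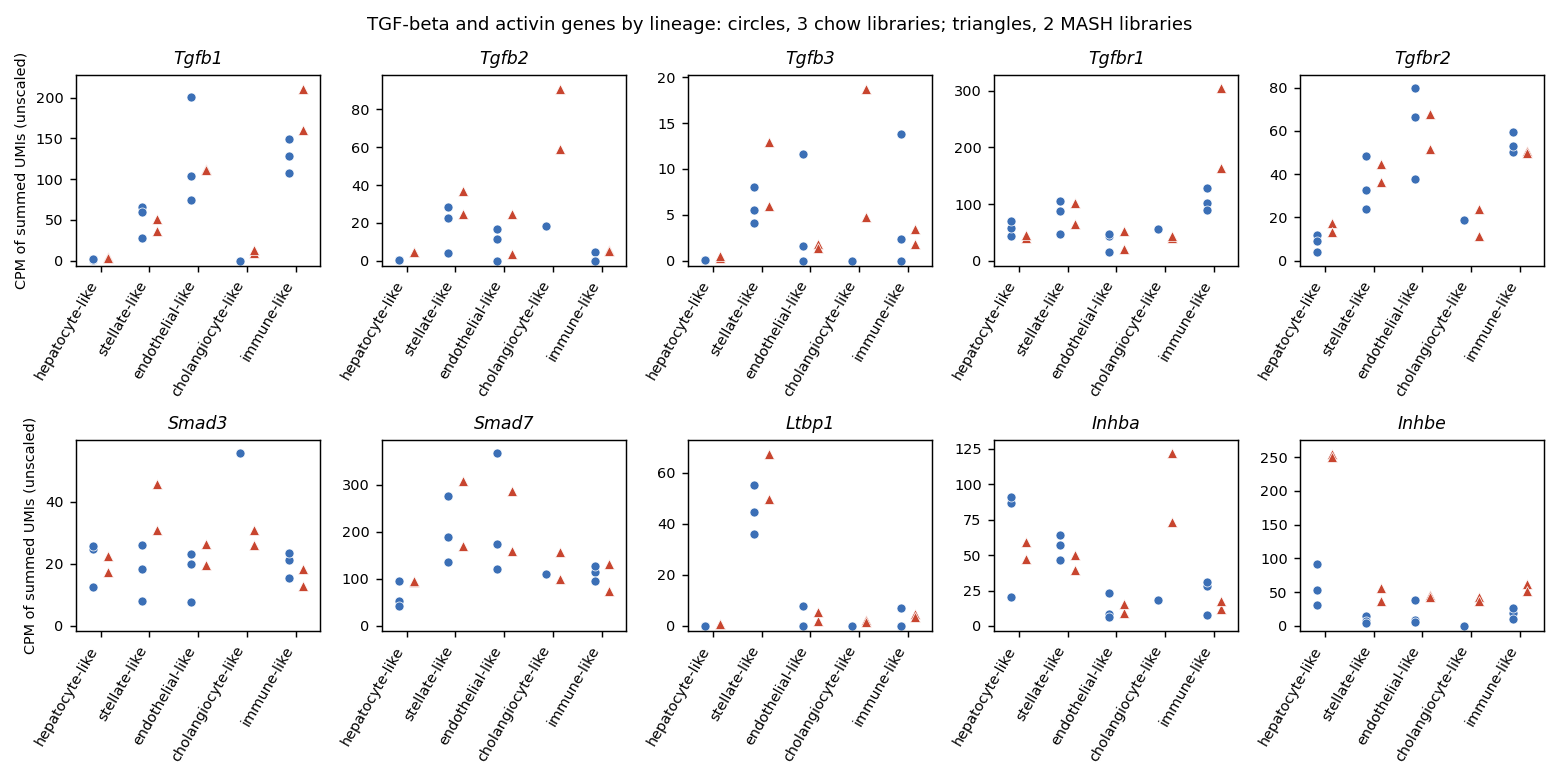
Unscaled CPM of each of the 10 genes (vertical axes, linear) in 5 lineages, with 1 point per library (blue circles, 3 chow libraries; red triangles, 2 MASH libraries; 1 chow library for cholangiocyte-like nuclei). Ltbp1 stood at 36.0 to 67.5 CPM in stellate-like nuclei and at most 7.79 CPM elsewhere, and Inhbe at 255 and 249 CPM in the hepatocyte-like nuclei of MASH.

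A lineage with many nuclei can hold most of a ligand's RNA at a low level, so shares of UMIs in named nuclei were also taken. Immune-like nuclei held 25.2% to 35.0% of Tgfb1 UMIs in chow and 55.8% to 67.9% in MASH. Macrophage-like nuclei alone held 7.78% to 17.1% in chow and 32.7% to 41.5% in MASH. Hepatocyte-like nuclei held 98.9% to 99.2% of Inhbe UMIs in chow and 95.1% to 95.7% in MASH, and 96.0% to 99.0% of Inhba UMIs in chow and 75.1% to 91.5% in MASH. Stellate-like nuclei held 60% to 90% of Ltbp1 UMIs in chow and 65.9% to 77.7% in MASH. For Tgfb2 in MASH, cholangiocyte-like nuclei held 15.4% and 45.5%, hepatocyte-like nuclei 56.8% and 29.3%, and stellate-like nuclei 17.9% in both libraries. On the receptor side, hepatocyte-like nuclei held 91.0% to 98.0% of Tgfbr1 UMIs in chow and 55.4% to 61.2% in MASH, while immune-like nuclei held 1.17% to 3.40% and 28.2% to 31.1%. These shares move with the number of nuclei recovered per lineage, and 10.5% to 33.7% of a gene's UMIs lay in unnamed nuclei.

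**Figure D2:**
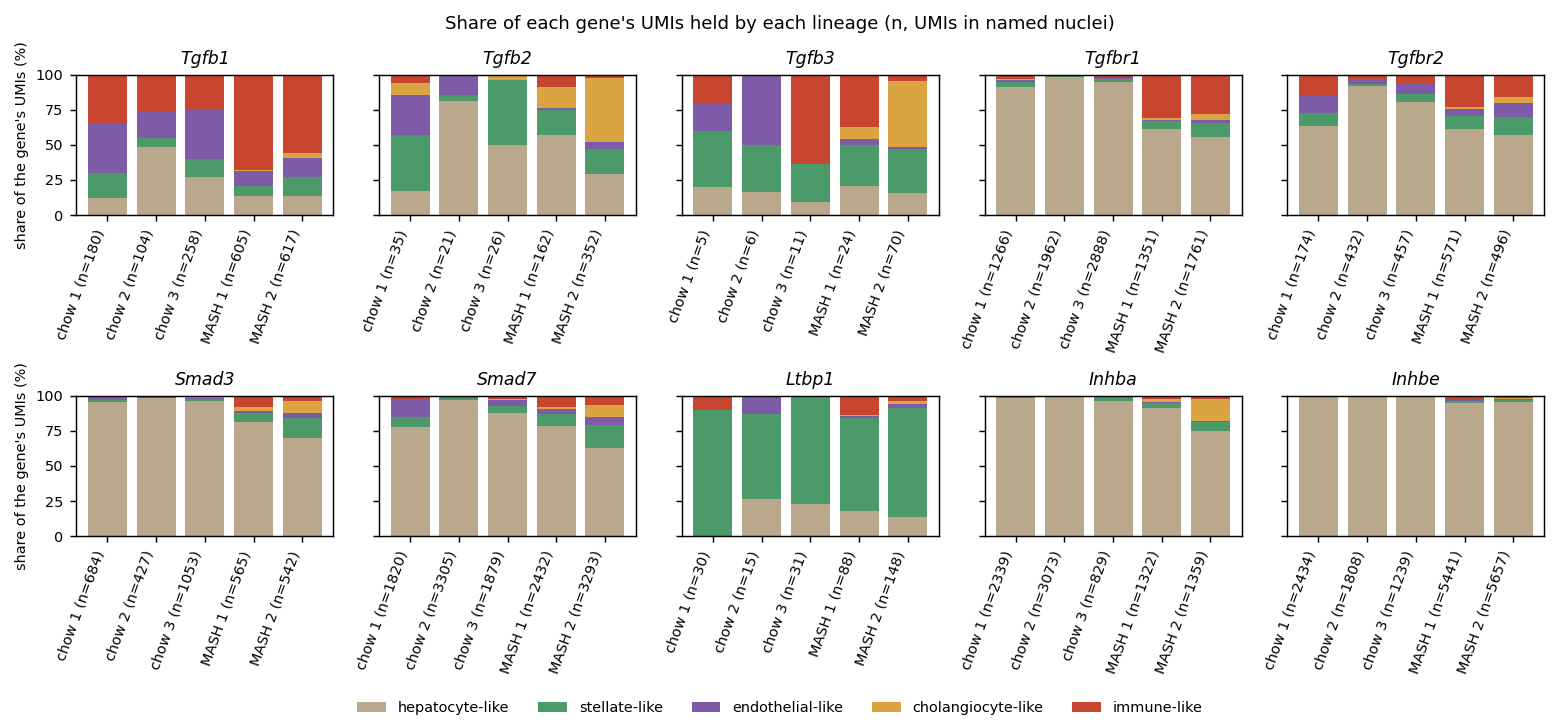
Share of each gene's UMIs in named nuclei (vertical axes, percent) held by each of the 5 lineages (colours), with 1 stacked bar per library and the number of UMIs beside its name. Immune-like nuclei took 55.8% to 67.9% of Tgfb1 in MASH against 25.2% to 35.0% in chow, while Inhbe stayed at 95.1% or more in hepatocyte-like nuclei.

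The first comparison asked how the genes differed between diets in the whole liver, with the UMIs of all nuclei of a library summed. All tests of diet below are edgeR quasi-likelihood tests with Benjamini-Hochberg adjustment over all genes tested, and CPM here is scaled by TMM. Of the 10 genes 4 rose in MASH and none fell, beside 15.8% of all genes called. Tgfb1 rose from 8.90, 5.25 and 11.05 CPM to 27.7 and 20.9 CPM, or by 1.53 on the log2 scale (SE 0.35, adjusted p 0.0309). Tgfb2 rose from 1.34, 0.857 and 1.34 CPM to 6.01 and 10.7 CPM, or by 2.82 (SE 0.44, adjusted p 0.0125). Ltbp1 rose by 1.91 (SE 0.48, adjusted p 0.0382) and Inhbe by 1.55 (SE 0.31, adjusted p 0.0224). For Tgfb1, Tgfb2, Tgfb3, Tgfbr2, Ltbp1 and Inhbe each MASH value was above every chow value, 6 of 10 beside 29.9% of all genes, and for none of the 10 did both lie below, beside 26.3%. Tgfb3 (1.67, adjusted p 0.0888) and Tgfbr2 (0.61, adjusted p 0.301) did not pass, and Tgfbr1, Smad3, Smad7 and Inhba overlapped between diets.

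In such whole-library sums, more nuclei of a type and more RNA per nucleus cannot be told apart. Immune-like, stellate-like and cholangiocyte-like nuclei, which hold much of Tgfb1, Ltbp1 and Tgfb2, were also more numerous in MASH. Leaving out chow replicate 3 kept all 4 calls, with adjusted p from 0.0186 to 0.0461, and Inhba was then lower in MASH by -1.09 (adjusted p 0.0348). Leaving out chow replicate 2, MASH replicate 1 or MASH replicate 2 ended the calls of Tgfb1, Ltbp1 and Inhbe (log2 fold changes of 1.28 to 2.18). Tgfb2 lost its call without MASH replicate 2 (2.44, adjusted p 0.0929). Over all alternatives the adjusted p ran from 0.00162 to 0.163 for Tgfb1, 4.78e-08 to 0.0929 for Tgfb2, 0.0011 to 0.231 for Ltbp1, 0.000351 to 0.116 for Inhbe and 0.0348 to 0.769 for Inhba.

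The second comparison asked the same of hepatocyte-like nuclei, the main parenchymal cells of the liver. Of 9 genes tested 2 were called and both rose, beside 13.0% of all genes called. Tgfb2 rose from 0.210, 0.545 and 0.432 CPM in chow to 4.15 and 3.98 CPM in MASH, 0.396 ± 0.170 (SD, n = 3) against 4.06 ± 0.115 (SD, n = 2), a log2 change of 3.34 (SE 0.49, edgeR adjusted p 0.0105). Its 6, 17 and 13 chow UMIs against 92 and 103 in MASH let it pass the filter on low counts only through MASH. Inhbe rose from 84.6, 57.3 and 40.8 CPM to 233 and 209 CPM, 60.9 ± 22.1 (SD, n = 3) against 221 ± 16.8 (SD, n = 2), a log2 change of 1.86 (SE 0.33, edgeR adjusted p 0.0173). Both genes lay higher in each MASH library than in any chow library. The same held for Tgfb1, at 0.771, 1.60 and 2.33 CPM in chow and 3.79 and 3.17 CPM in MASH, which did not pass (1.15, adjusted p 0.165), and for Ltbp1 (2.58, adjusted p 0.0897), whose 0, 4 and 7 chow UMIs against 16 and 20 in MASH let it pass the filter on low counts only through MASH. Without chow replicate 3 it was at 3.37 (adjusted p 0.0461, range over alternatives 0.0381 to 0.372), with 4 chow UMIs left. That made 4 genes above beside 29.1% of all genes, with Tgfb2 and Ltbp1 tested only through MASH. Tgfbr1 was the 1 gene with both MASH libraries below, beside 24.9% of all genes, at 40.4, 61.6 and 91.1 CPM in chow and 37.3 and 37.7 CPM in MASH on the TMM scale (-0.78, adjusted p 0.170). Tgfb3 was too low to test, with 3 chow and 16 MASH UMIs and a CPM ratio of 12.6 (exact 95% counting interval 3.61 to 67.6).

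Diet and cluster went together, since the hepatocyte-like nuclei of MASH lay in the Nrg1- and Themis-led clusters and those of chow in others. Without chow replicate 3 Tgfb2 was at 3.37 (adjusted p 0.0104) and Inhbe at 1.61 (adjusted p 0.0126), and Inhba was then called lower at -0.96 (adjusted p 0.0401). Without MASH replicate 1 or MASH replicate 2 neither gene was called, with Tgfb2 at 3.31 and 3.37 and Inhbe at 1.78 and 1.94, and Inhbe was not called without chow replicate 2 either (1.79, adjusted p 0.0605). Over all alternatives the adjusted p ran from 5.87e-08 to 0.0962 for Tgfb2, from 3.08e-05 to 0.133 for Inhbe and from 0.0401 to 0.850 for Inhba. A further call appeared with a library left out, Tgfbr1 without chow replicate 1 (-1.03, adjusted p 0.0460, range 0.0460 to 0.508).

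Markers of other cell types were read in hepatocyte-like nuclei, with summed levels higher in MASH for the stellate, cholangiocyte and endothelial lists and overlapping for the immune list, none of them tested. The 8 stellate markers summed to 26.5 to 28.0 CPM in chow and 80.6 to 91.4 CPM in MASH, with all 8 detected in every library. The 8 cholangiocyte markers summed to 39.6 to 73.2 CPM and 113 to 124 CPM, with 5 to 8 detected, the 10 endothelial markers to 28.6 to 35.9 CPM and 56.1 to 69.4 CPM, and the 8 immune markers to 70.7 to 148 CPM and 145 to 154 CPM. In MASH the hepatocyte-like level of Tgfb2 was 7.66% and 5.22% of the cholangiocyte-like level, where the median cholangiocyte marker was at 2.21% and 1.69%, and 18.2% and 12.8% of the stellate-like level, where the median stellate marker was at 1.14% and 1.31%. For Ltbp1 the hepatocyte-like level was 1.58% and 1.37% of the stellate-like level, where the median stellate marker was at those 1.14% and 1.31%. For Tgfb1 it was 2.58% and 1.79% of the immune-like level, where the median immune marker was at 1.44% and 1.19%. In MASH replicates 1 and 2 single cholangiocyte markers ran from 0% to 22.9% and from 0.200% to 29.2%. Stellate markers ran from 0.407% to 3.79% and from 0.457% to 3.57%, and immune markers from 0.956% to 34.5% and from 0.567% to 32.8%. Tgfb2 lay within the cholangiocyte range and above the stellate range. Ltbp1 lay within the stellate range and Tgfb1 within the immune range. The part of free RNA in the rises of these genes was not tested.

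**Figure D3:**
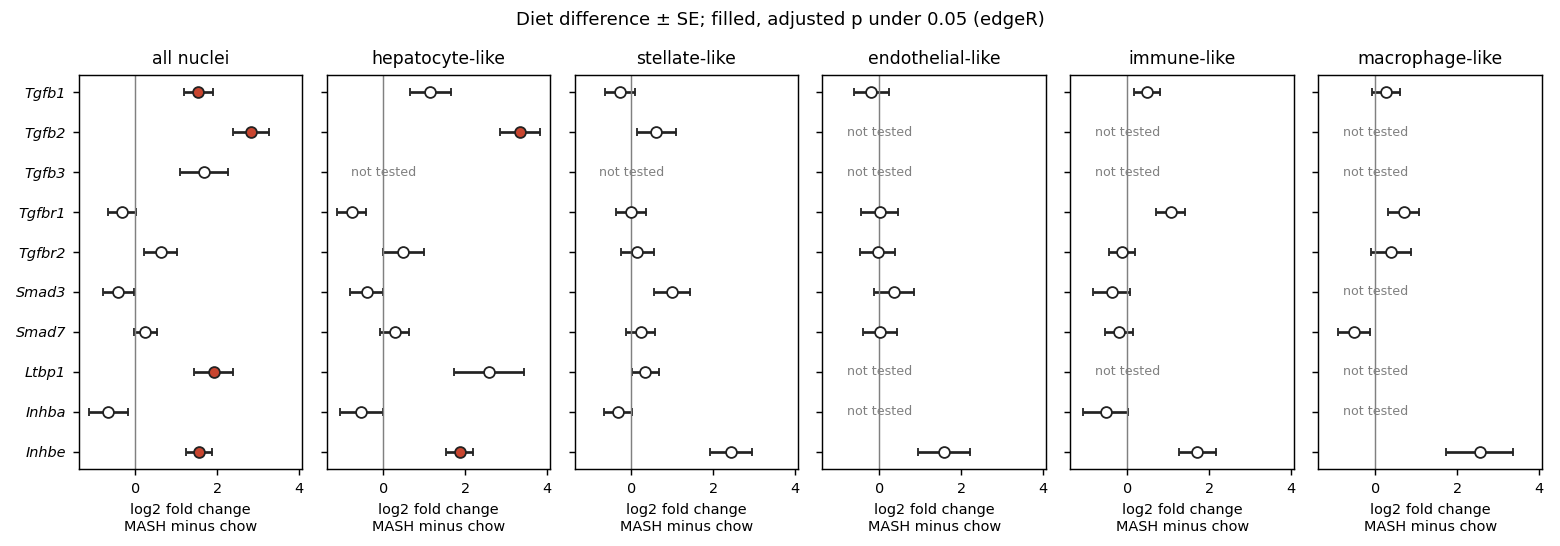
Log2 fold change, MASH minus chow, of the 10 genes in 6 edgeR comparisons, with 1 panel each (points, estimates; bars, ± SE; filled red, adjusted p under 0.05). Filled points are Tgfb1, Tgfb2, Ltbp1 and Inhbe in all nuclei and Tgfb2 (3.34) and Inhbe (1.86) in hepatocyte-like nuclei, and no point is filled in the other 4 panels.

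In stellate-like nuclei, the cells that lay down scar collagen, none of 9 genes tested was called with edgeR, beside 0.883% of all genes. At an unadjusted p under 0.05 there were 2, Smad3 and Inhbe, beside 1071 of all 8153 genes, and DESeq2 called 1, Inhbe, beside 132 genes. Smad3 was at 16.7, 9.14 and 28.9 CPM in chow and 34.4 and 43.8 CPM in MASH, with all MASH values higher, a log2 change of 0.99 (SE 0.43, edgeR adjusted p 0.352). Ltbp1 was at 50.1, 41.1 and 49.5 CPM in chow and 55.4 and 64.5 CPM in MASH (0.34, adjusted p 0.695). Tgfb2, Smad3, Ltbp1 and Inhbe had both MASH libraries above all chow libraries, 4 of 9 beside 15.5% of all genes, and Inhba had both below, beside 14.0%. Of these, Smad3 (9, 2 and 14 chow UMIs) and Inhbe (7, 2 and 2) passed the filter on low counts only through MASH. Both receptors overlapped, with Tgfbr1 at -0.02 and Tgfbr2 at 0.14. Most stellate-like nuclei of MASH replicate 2 (772 of 1280) lay in the Adamtsl2-led cluster, and most of chow replicate 3 (368 of 389) in one led by Ccl2 and Dcn.

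In endothelial-like nuclei none of 6 genes tested was called with edgeR, beside 0.781% of all genes, 1 (Inhbe) had an unadjusted p under 0.05, beside 791 of all 8453 genes, and DESeq2 called 0. Only Smad3 of the 6 had both MASH libraries above, beside 12.7% of all genes, and none had both below, beside 11.4%. Tgfb1 (-0.20), Tgfbr1 (0.01), Tgfbr2 (-0.04) and Smad7 (0.02) had log2 fold changes smaller than their standard errors of 0.41 to 0.45.

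In immune-like nuclei none of 7 genes tested was called with edgeR, beside 0.850% of all genes, 2 (Tgfbr1 and Inhbe) had an unadjusted p under 0.05, beside 1199 of all 8117 genes, and DESeq2 called 0. Tgfbr1 was at 98.3, 104 and 137 CPM in chow and 189 and 283 CPM in MASH, a log2 change of 1.06 (SE 0.36, edgeR adjusted p 0.219). Tgfb1 was at 144, 126 and 137 CPM in chow and 185 and 196 CPM in MASH (0.49, SE 0.32, adjusted p 0.519). Tgfb1, Tgfbr1 and Inhbe had both MASH libraries above all chow libraries, 3 of 7 beside 15.9% of all genes, and none had both below, beside 14.7%. Inhbe passed the filter on low counts there only through MASH. In macrophage-like nuclei none of 5 genes tested was called with edgeR, beside 2.36% of all genes, 1 (Inhbe) had an unadjusted p under 0.05, beside 723 of all 5375 genes, and DESeq2 called 0. Tgfbr1 was at 258, 125 and 218 CPM in chow and 283 and 371 CPM in MASH (0.70, adjusted p 0.464). It and Inhbe had both MASH libraries above, beside 14.7% of all genes, and none had both below, beside 12.6%. Here too Inhbe was tested only through MASH. Nearly all macrophage-like nuclei of MASH lay in clusters led by Cd5l and Clec4f (resident Kupffer cell genes) and by Gpnmb and Mmp12 (lipid-associated macrophage genes), and the latter held 12 chow nuclei.

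Inhbe had a positive log2 fold change in every lineage tested, and hepatocyte RNA was read in all of them. Outside hepatocyte-like nuclei it was at 0 to 38.9 CPM in chow and 37.0 to 62.4 CPM in MASH over the other 4 lineages. Its log2 fold change was 2.43 (adjusted p 0.0600) in stellate-like, 1.59 (adjusted p 0.430) in endothelial-like, 1.71 (adjusted p 0.116) in immune-like and 2.55 (adjusted p 0.144) in macrophage-like nuclei, all without passing. In each of these groups Inhbe passed the filter on low counts only through MASH, so the filter favoured a positive change. Its chow UMIs there were 7, 2 and 2 (stellate), 5, 10 and 3 (endothelial), 8, 7 and 5 (immune) and 1, 3 and 0 (macrophage). Over all alternatives the adjusted p in stellate-like nuclei ran from 0.000203 to 0.275, and it passed with DESeq2, with no filter on low counts, with Storey's q-values and when nuclei were chosen by marker UMIs. In immune-like nuclei it passed with no filter and by marker UMIs (range of adjusted p 0.00249 to 0.561). As a share of the hepatocyte-like level of the same library, Inhbe was at 0% to 72.8% in these lineages. The 10 hepatocyte markers were together at 46.5% to 157%, the lowest of them at 6.37% to 21.6% and the highest at 120.2% to 333%. The share of Inhbe lay between the lowest and the highest hepatocyte marker in 15 of 18 library and lineage sums. The remaining 3 lay below, and Inhbe was below the median hepatocyte marker in all 18 sums. In macrophage-like nuclei Inhbe was called without chow replicate 2 (4.13, adjusted p 0.0207, range over alternatives 0.0207 to 0.847). The part of free hepatocyte RNA in these values was not tested.

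**Figure D4:**
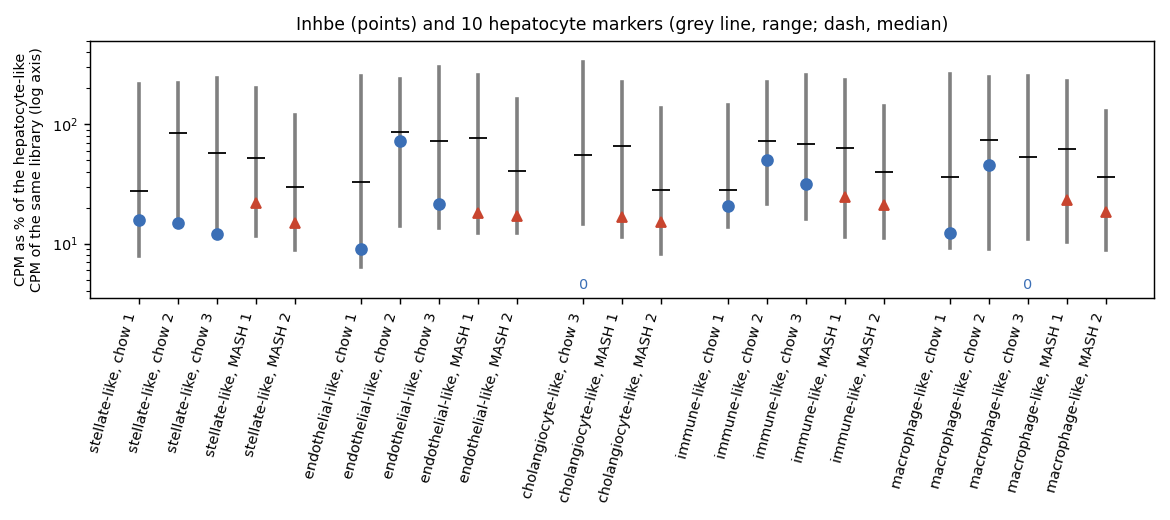
Level of Inhbe outside hepatocyte-like nuclei, as a percent of the hepatocyte-like level of the same library (vertical axis, log scale; blue circles, chow; red triangles, MASH; a 0 marks no UMI), beside the range (grey lines) and median (dashes) of 10 hepatocyte markers. Points lay within the grey range in 15 of 18 sums of the 4 lineages, and macrophage-like nuclei, which are part of the immune-like ones, are shown apart.

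For cholangiocyte-like nuclei no test was possible with the clustered nuclei, as only 1 chow library had 20 of them. Nuclei chosen by a Pkhd1 UMI and no UMI of the other lineages' genes, 108, 71 and 46 in chow, gave a test, but they were not the clustered ones alone. In chow replicate 1 the 108 chosen nuclei held 451794 UMIs, against 19572 in the 17 clustered nuclei, and in MASH Inhbe was at 213 and 143 CPM in the chosen nuclei, against 42.6 and 37.5 CPM in the clustered and 255 and 249 CPM in hepatocyte-like nuclei. In the chosen nuclei 1 of 5 genes tested, Inhbe, was called (1.87, adjusted p 0.0489) beside 4.01% of all genes, and the part of hepatocyte nuclei or RNA in it was not tested. Inhba was at 119.5, 84.2 and 49.1 CPM in chow and 67.0 and 83.3 CPM in MASH (-0.33, adjusted p 0.657), and Tgfb2, too low to test, at 2.21, 0 and 0 CPM and 13.0 and 43.6 CPM.

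Whether diet effects differed between lineages was tested with the interaction of lineage and diet in a joint model that blocked on library. Stellate-like against hepatocyte-like nuclei, 4 of 10 genes were called, beside 5.46% of all genes. The log2 fold change in stellate-like minus hepatocyte-like nuclei was below 0 for Tgfb1 (-1.45, SE 0.45, adjusted p 0.0267), Tgfb2 (-2.73, SE 0.62, adjusted p 0.000626) and Ltbp1 (-2.19, SE 0.63, adjusted p 0.0136), all at levels under 5 CPM in hepatocyte-like nuclei. It was above 0 for Smad3 (1.58, SE 0.44, adjusted p 0.00962), which was at 0.99 in stellate-like and -0.41 in hepatocyte-like nuclei, without passing in either. Endothelial-like against hepatocyte-like nuclei, 2 were called, beside 3.94% of all genes, Tgfb1 (-1.28, adjusted p 0.0428) and Tgfb2 (-2.77, adjusted p 0.0363). Tgfb2, with 10, 3, 0, 2 and 18 UMIs in endothelial-like nuclei, was too low to test in that lineage alone. Macrophage-like against hepatocyte-like nuclei, 1 was called, beside 4.92% of all genes. That was the receptor Tgfbr1 (1.70, SE 0.40, adjusted p 0.00386), at 0.70 in macrophage-like and -0.78 in hepatocyte-like nuclei. The median of all genes in these 3 models was 0.06, 0.12 and 0.41, and relative to it the stellate differences were -1.51 (Tgfb1), -2.79 (Tgfb2), -2.24 (Ltbp1) and 1.53 (Smad3), the endothelial ones -1.39 (Tgfb1) and -2.89 (Tgfb2), and the macrophage one 1.30 (Tgfbr1). The part of free RNA in these differences was not tested. These calls depended on single libraries. The Tgfbr1 difference was not called without chow replicate 3 (1.38, adjusted p 0.0910), MASH replicate 1 (1.59, 0.185) or MASH replicate 2 (1.23, 0.477), nor with DESeq2 (1.33, adjusted p 0.189), in a range of adjusted p from 0.000952 to 0.477. In stellate-like nuclei the Tgfb1, Tgfb2 and Ltbp1 differences were not called without chow replicate 1, MASH replicate 1 or MASH replicate 2 (-2.93 to -0.91), and that of Smad3 not without MASH replicate 2 (1.12, adjusted p 0.741). DESeq2 called neither Tgfb1, Ltbp1 nor Smad3. None of the 4 was called when nuclei were chosen by marker UMIs, with values of -2.33 to 0.67. In endothelial-like nuclei the Tgfb1 difference was not called without chow replicate 3, MASH replicate 1 or MASH replicate 2 (-1.55 to -1.30), and that of Tgfb2 not without chow replicate 1, chow replicate 2 or MASH replicate 1 (-2.87 to -1.66).

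A further 64 genes of the pathway, in 6 lists of ligands, receptors, SMAD proteins, latency factors, targets and the BMP arm, were read in the same tests. In hepatocyte-like nuclei 58 were tested, 11 rose and 2 fell, beside 13.0% of all genes called (1291 higher and 644 lower). Of 8 tested target genes 5 rose, among them the collagens Col1a2 (4.03, adjusted p 0.00397) and Col1a1 (4.28, adjusted p 0.0121), and Ccn2 (2.96) and Tgfbi (1.90). Pmepa1 and Gdf10 are named after their values were seen. Col1a1, at 0.105 to 0.731 CPM in chow and 7.12 and 8.51 CPM in MASH, is also a stellate cell transcript. Stellate markers, too, were read at higher summed levels in hepatocyte-like nuclei of MASH. The part of free RNA in the rises of these target genes, and of the latency genes below, was not tested. Fn1, which encodes the matrix protein fibronectin, did not pass (-0.73, adjusted p 0.275), nor did Loxl2 (-0.45) and Timp1 (0.78). Of 9 latency genes 3 rose, the integrin subunit Itgb8 (5.29), Ltbp3 (4.44) and the microfibril gene Fbn1 (2.48), while Itgav (0.39), Ltbp4 (0.52) and Nrros (0.51) did not pass. Itgb8 had 1 UMI in each chow library against 13 and 61 in MASH, and Ltbp3 had 5, 1 and 1 against 29 and 59, so both passed the filter on low counts only through MASH and their folds rest on few chow UMIs. Of 11 SMAD proteins and inhibitors Pmepa1, a feedback inhibitor, rose (1.95, adjusted p 0.0303), and Smad4 (-0.35), Tgif1 (0.50) and Smurf2 (-0.08) did not pass.

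Among other ligands in hepatocyte-like nuclei 2 of 6 rose, Gdf15, a stress-induced cytokine (1.89, adjusted p 0.0197), from 35.7 to 78.0 CPM in chow to 181 and 230.1 CPM in MASH, and Gdf10 (1.73). Inhbc, the neighbour of Inhbe, did not pass (-0.20, adjusted p 0.663), nor did Nodal (1.73) and Gdf11 (-2.03). The 1 of 7 activin receptors called was Acvr2b, which fell from 37.4, 55.3 and 51.5 CPM to 15.1 and 17.4 CPM (-1.56, adjusted p 0.0154), while Acvr2a (-0.27), Acvr1 (-0.30) and Acvr1b (0.45) did not pass. In the BMP arm 1 of 17 was called. Hamp, the iron hormone hepcidin and a target of BMP6 signalling, fell by 2.45 (adjusted p 0.0216), from 766, 819 and 1661 CPM to 227 and 169 CPM, and Id2 (-1.16, adjusted p 0.0764), Id3 (-1.80) and Smad5 (0.12) did not pass. The median log2 fold change over the 58 was 0.51 beside -0.02 over all genes.

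In stellate-like nuclei 44 were tested and 3 rose, beside 0.883% of all genes called. They were Col1a1 from 94.7, 73.2 and 129.9 CPM to 621 and 689 CPM (2.70, adjusted p 0.00811), Col1a2 (2.08, adjusted p 0.0202) and Gdf15 (3.29, adjusted p 0.0496). There the matrix gene Fn1 (0.42), Tgfbi (-0.11), Ccn2 (0.35), the feedback inhibitor Pmepa1 (0.74), the co-receptors Eng (-0.96) and Tgfbr3 (-0.70), Ltbp4 (-1.06) and Hamp (-2.71, adjusted p 0.0582) did not pass. In endothelial-like nuclei 1 of 39 was called, beside 0.781% of all genes, Gdf15 (2.83, adjusted p 0.0327). Ccn2, a target gene also driven by YAP, did not pass there (1.62, adjusted p 0.0635), nor did Bmp2 (-1.06), Eng (-0.25), Inhbb (-0.18) and Ltbp4 (-0.05). In immune-like nuclei 1 of 31 was called, beside 0.850% of all genes, Ltbp3 (2.82, adjusted p 0.0469), and the integrin subunit Itgav (1.41, adjusted p 0.0910), which activates latent TGF-beta, Thbs1 (-2.10), Tgif1 (1.09), Tgfbi (0.62) and Gdf15 (1.67) did not pass. In macrophage-like nuclei Ltbp3 rose (4.64) and Hamp fell by 2.65, both calls among 19 beside 2.36% of all genes, with 1 chow UMI of Ltbp3 in all, and Id1 did not pass (-1.97, adjusted p 0.0525). Gdf15 and Hamp were also read in hepatocyte-like nuclei, and the part of free RNA in their values was not tested.

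In all nuclei 63 of the 64 were tested, 16 rose and 2 fell, beside 15.8% of all genes called. The 10 with the smallest p were Pmepa1 (1.95), Ccn2 (2.41), Ltbp3 (3.66), Itgb6 (7.07), Acvr2b (-1.62), Col1a2 (3.25), Tgfbi (1.79), Fbn1 (2.47), Col1a1 (3.51) and Hamp (-2.62). Itgb6, an epithelial integrin subunit that activates latent TGF-beta, was at 0, 0 and 0.0304 CPM in chow and 0.630 and 2.92 CPM in MASH. It therefore passed the filter on low counts only through MASH, and its fold rests on almost no chow UMIs. In the interaction of stellate-like against hepatocyte-like nuclei 14 of 62 were lower, beside 5.46% of all genes called, and 1, Acvr2b (1.75), higher in stellate-like nuclei, and Itgb8 (-4.80), Ccn2 (-2.63) and Ltbp3 (-3.32) were among those with the smallest p. Col1a2 (-1.90) was among the lower, although it was called higher in MASH in stellate-like nuclei. The part of free RNA in these differences was not tested. Endothelial-like against hepatocyte-like nuclei, Bmp2 was lower (-1.52), and macrophage-like against hepatocyte-like nuclei, Id1 was lower (-2.31) and Id2 higher (1.45).

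Genes with the most similar pattern were found by Pearson correlation of log2(CPM + 1) over 25 sums of 5 lineages in 5 libraries, among 7758 genes, as a description, since sums share libraries and free RNA. Tgfb1 was closest to Ppp1r18, Msn and Slfn5 (r 0.985 to 0.981). Ltbp1 was closest to Pde3a, Gucy1b1 and Col6a1 (r 0.965 to 0.952), and Tgfbr2 to Gnai2, Fmnl2 and Atp6ap2 (r 0.966 to 0.947). Among the genes closest to Inhbe were C130074G19Rik and Hjv (r 0.943 for both). Tgfbr1 was closest to Snx18, Bmt2 and Akap10 (r 0.915 to 0.899), Smad3 to Sept1, Amz2 and Pitpnb (r 0.944 to 0.933), Inhba to Pard3, Bmpr1a and Zfhx4 (r 0.881 to 0.817), Smad7 to Sbf2, Rsu1 and Strn3 (r 0.863 to 0.823), Tgfb2 to Tex9 and Ttc3 (r 0.842 and 0.839), and Tgfb3 to Grk5, Thbs1 and Gsn (r 0.763 to 0.733).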

How the data were processed

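Nuclei from frozen liver were sorted and sequenced with 10x 3' chemistry. The authors deposited 1 matrix of raw UMI counts per library, made with Cell Ranger 8.0.1 on GRCm38 per the submitters' processing notes. Barcodes with under 300 genes were removed. Scrublet's own threshold called 0 to 3 nuclei per library, so 585 to 1333 top-scoring nuclei per library were removed as doublets. Nuclei were clustered with scanpy 1.11.5 on 3000 variable genes without the 10 genes and pathway lists, and named by marker lists. UMIs were summed per library and lineage (at least 20 nuclei) and tested with edgeR 4.0.16 (quasi-likelihood, TMM, filterByExpr, Benjamini-Hochberg), checked on simulated data. DESeq2 1.42.0, Storey q-values, other filters, left-out libraries, a replicate block and nuclei chosen by marker UMIs were alternatives. Totals per library limit low genes, and intervals cover counting error only. Named are the 10 genes, up to 10 called pathway genes with the smallest p per comparison, up to 3 uncalled ones per list with the highest mean CPM, and the 3 genes most like each member. The members and lists were chosen with earlier results of these data known. A few genes that this rule names are not reported here.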

Additional observations from a re-analysis of the deposited data

Results flagged for a closer look

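Differences between lineages in the response to diet passed the interaction test for 7 gene and lineage pairs, each given as the log2 fold change in the named lineage minus that in hepatocyte-like nuclei. In stellate-like nuclei they were -1.45 for Tgfb1, -2.73 for Tgfb2, 1.58 for Smad3 and -2.19 for Ltbp1, beside 5.46% of all genes called. In endothelial-like nuclei they were -1.28 for Tgfb1 and -2.77 for Tgfb2, beside 3.94% of all genes. In macrophage-like nuclei it was 1.70 for Tgfbr1, beside 4.92% of all genes. The part of free RNA in these differences was not tested. Each of these calls was lost in some alternatives, among them single left-out libraries. No stellate pair was called with nuclei chosen by marker UMIs.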

How the results depend on the processing

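The 2 MASH libraries set the precision, and low genes such as Tgfb3 were limited by depth. Over the members, 574 values kept their direction and side of the threshold, 50 lost a call, 15 gained one and 26 changed sign, all 26 from uncalled values. The cause was not tested. Genes called numbered 2592 in all nuclei, against 4387 with DESeq2, 5178 with Storey q-values and 305 to 3448 with 1 library left out. In hepatocyte-like nuclei 1935 became 3379, 4088 and 136 to 2726. In stellate-like nuclei 72 became 132 with DESeq2, 490 with no filter on low counts, 36 with a stricter one and 32 to 122 with 1 library left out. In endothelial-like nuclei 66 became 314, 43 and 10 to 92 with no filter, the stricter one and 1 library left out. In immune-like nuclei 69 became 188 with DESeq2, 40 with RLE factors, 672 and 23 with the other filters, 106 with Storey q-values, 112 with nuclei chosen by marker UMIs, 135 without neutrophil-like nuclei (an alternative chosen after seeing the data, as was that of named nuclei only) and 0 to 165 with 1 library left out. In macrophage-like nuclei 127 became 36 with the stricter filter and 8 to 232 with 1 library left out. The interaction counts of 827, 591 and 720 became 465 and 251 with nuclei chosen by marker UMIs (stellate, endothelial), 514 with DESeq2 (stellate) and 258 to 923, 237 to 672 and 253 to 1019 with 1 library left out. Splits of higher against lower calls moved with DESeq2 from 1715 and 877 to 2444 and 1943 in all nuclei, from 1291 and 644 to 1794 and 1585 in hepatocyte-like, from 35 and 31 to 35 and 59 in endothelial-like and from 55 and 72 to 45 and 110 in macrophage-like nuclei. In the interactions they moved from 211 and 616 to 69 and 445 (stellate), from 153 and 438 to 40 and 358 (endothelial) and from 287 and 433 to 40 and 524, or 130 and 677 with RLE factors (macrophage).

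Uncalled values that changed sign were small. With 1 library left out at a time, values in stellate-like nuclei ran from -0.25 to 0.29 for Tgfbr1, from -0.12 to 0.53 for Tgfbr2 and from -0.12 to 0.51 for Smad7. In endothelial-like nuclei they ran from -0.41 to 0.36 for Tgfb1, from -0.55 to 0.36 for Tgfbr1, from -0.41 to 0.27 for Tgfbr2 and from -0.24 to 0.45 for Smad7, and in immune-like nuclei from -0.46 to 0.053 for Smad7 and from -0.29 to 0.045 for Tgfbr2. In stellate-like nuclei Tgfbr1 became 0.027 with no filter and 0.0022 with the stricter filter, and Tgfbr2 -0.017 with doublets kept. In endothelial-like nuclei Tgfbr1 became -0.25 and Tgfbr2 0.18 with marker UMIs, and Smad7 -0.015 with doublets kept.

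The labels share replicate numbers 1 and 2 between diets without saying that they pair libraries, and deviations of same-numbered libraries correlated at -0.37 to -0.00. With the replicate block 1842 genes were called in all nuclei, 1822 in hepatocyte-like, 84 in stellate-like, 8 in endothelial-like, 57 in immune-like and 6 in macrophage-like nuclei. With the block Ltbp1 in all nuclei was at 2.07 (adjusted p 0.0810) and Inhba at -1.03 (adjusted p 0.0483), and signs changed for Tgfbr1 in all nuclei (0.048) and stellate-like nuclei (0.30), and for Tgfb1 (0.36) and Tgfbr2 (0.25) in endothelial-like nuclei. The interactions had no such fit.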
